A study of Mus musculus with 6 samples.

Results

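The spindle assembly checkpoint and the chromosomal passenger complex were represented by 10 genes, chosen as those rows of the deposited expression table whose gene symbol was Bub1, Bub1b, Bub3, Ttk, Mad2l1, Mad1l1, Aurkb, Aurkc, Incenp or Birc5. All 10 were found among the 24255 genes of the table, and 9 of them were among the 6398 genes that reached 1 FPKM (fragments mapped to a transcript, scaled by its length and by the mapped fragments of the library) in at least 1 library and were tested. Aurkb stayed below that level in every library and is given by its values. The libraries came from wild type (WT) and Lsm14b KO mouse oocytes at the GV stage, the prophase-arrested, fully-grown oocytes (FGOs) that still hold an intact germinal vesicle. The product of Lsm14b is an RNA-binding protein of oocytes, and the question was which stored transcripts differ when it is absent.

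There were 3 libraries per genotype, each made from total RNA of 20 oocytes. The labels name both a Smart-seq2 amplification and a random-primed library kit. All females had received 5 IU of PMSG, a gonadotropin that drives follicle growth, 46 h before collection. The KO females were homozygous for Lsm14b tm1a, a reporter-tagged insertion allele carried in every cell of the animal and not in the oocyte alone, on the C57BL/6J background. The age of the females was not given for these libraries. Each library pooled oocytes, and nothing in the labels says whether the replicates came from separate animals, so the p-values below measure only the spread between these libraries.

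The checkpoint delays anaphase until every kinetochore is attached to spindle microtubules. TTK (MPS1) kinase starts the signal at unattached kinetochores, the BUB1 and BUB3 proteins bind there, MAD1 recruits MAD2, and MAD2 together with BUBR1 (the product of Bub1b) and BUB3 holds CDC20 in an inhibited state, so that the anaphase-promoting complex stays off. The passenger complex joins an Aurora kinase (B in most cells, C as well in germ cells) to the scaffold INCENP, to survivin (the product of Birc5) and to borealin (Cdca8), and it corrects wrong attachments. A GV-stage oocyte is transcriptionally silent and stores the transcripts of both systems for the meiotic divisions that follow.

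Promoter and 3′ UTR sequences of some of the 10 genes are shown first. Bub1 and Bub3 were the checkpoint genes whose Lsm14b-KO values all lay above the WT values, and their promoters (RefSeq, GRCm38.p6, 250 bases before to 50 after the start, as in a table that matched 8 of the 10 genes) were searched for the CHR element (TTTGAA or TTCGAA on either strand, the second being its own reverse complement) and for CCAAT on either strand, both known from promoters of cell cycle genes. The motifs do not overlap, and capitals mark them. Bub1 lies on the minus strand (chr2:127831810-127832109) and Bub3 on the plus strand (chr7:131560120-131560419).
Bub1 promoter: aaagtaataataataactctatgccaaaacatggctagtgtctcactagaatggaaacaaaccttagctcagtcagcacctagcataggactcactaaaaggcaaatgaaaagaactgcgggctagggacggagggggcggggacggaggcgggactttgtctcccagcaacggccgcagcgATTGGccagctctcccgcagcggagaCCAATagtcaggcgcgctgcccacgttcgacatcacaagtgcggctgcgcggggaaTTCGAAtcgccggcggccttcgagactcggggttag
Bub3 promoter: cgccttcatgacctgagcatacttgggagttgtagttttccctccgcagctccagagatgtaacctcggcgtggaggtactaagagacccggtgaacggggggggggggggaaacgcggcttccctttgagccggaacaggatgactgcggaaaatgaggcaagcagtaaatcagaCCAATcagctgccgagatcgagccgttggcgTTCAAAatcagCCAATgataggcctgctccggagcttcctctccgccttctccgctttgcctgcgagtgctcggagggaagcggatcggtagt
Each window held 1 CHR match and 2 CCAAT matches, with the CHR match beginning 14 bases after the start in Bub1 and 43 bases before it in Bub3. The Ttk window held the same 1 CHR match and 2 CCAAT matches, and the Bub1b window 2 CHR matches and 1 CCAAT match. The FPKM of Bub1b and Ttk did not differ between the genotypes beyond their spread. There was no CHR match in the windows of Mad2l1, Mad1l1, Aurkc and Birc5, and of these only Aurkc held a CCAAT match. Whether the motifs have a part in the differences was not tested. Of all 32851 promoters of the table, 19.2% held a CHR match and 37.4% a CCAAT match.

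Stored oocyte transcripts are often controlled through cytoplasmic polyadenylation elements near the end of the 3′ UTR, and TTTTAT and TTTTAAT were searched on the sense strand in the last 100 nt of 1 transcript per gene (GRCm38, GENCODE vM21). The search was by letters alone, and the place of a match relative to a polyadenylation signal is not given. Of the 10 genes, 4 held a match. The match nearest to the transcript end, in capitals with up to 10 flanking bases on each side, was as follows.
Bub1b 3′ site: tcactgtgtaTTTTATaataaaatag
Mad2l1 3′ site: agaactcttaTTTTAATgtttt
Aurkb 3′ site: aagaacaacaTTTTATaataaagtct
Aurkc 3′ site: ttgttttctcTTTTATgaagtgatgt
These sites lay 21, 5, 31 and 38 nt from the transcript end, in that order. Among the 5820 tested genes with an annotated 3′ UTR, 19.8% held a match in this window. Over the whole 3′ UTR, where 60.3% of those genes held a match, Birc5 held 3, Bub1b and Ttk 2 each, Mad2l1, Aurkb and Aurkc 1 each, and Bub1, Bub3, Mad1l1 and Incenp 0. These counts depend on UTR length. The 3′ UTR of the Birc5 transcript used was 2936 nt, against a median of 854 nt in those genes, and other forms of the transcript were not searched.

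The libraries were not alike in scale. FPKM values summed to 1141324 to 1244182 in the WT libraries and to 564671 to 1029728 in the Lsm14b-KO libraries, with the highest KO sum in replicate 1, and the relative depth read from the smallest steps of the values was 1 to 1.14 in WT and 1.33 to 2.18 in Lsm14b-KO, the absolute depth being unknown. Lsm14b-KO replicate 1 stood nearer to WT than its group did: its Pearson r across tested genes was 0.952 to 0.954 with WT libraries, 0.917 with KO replicate 2 and 0.960 with KO replicate 3. Lsm14b itself had 2.77, 3.98 and 1.72 FPKM in WT and 0, 0 and 0.102 FPKM in KO (adjusted p = 0.0038 in limma). All 12 oocyte markers were present in all 6 libraries, with a summed level of 49500 to 61600 FPKM in WT and 32100 to 79800 FPKM in KO. Most of that sum was Dppa3 (19400 to 63600 FPKM), and single markers did not move together: in KO replicates 2 and 3 Bmp15 was at 1480 and 611 FPKM, above its 183 to 380 FPKM in WT, and Oosp1 at 1850 and 3640 FPKM, below its 4930 to 5800 FPKM. Of the oocyte markers 1 was called, Padi6, which was higher. Of the 3 tested granulosa markers 1 was called, Cyp19a1, which was lower (8.26 to 11.5 FPKM in WT and 3 to 5.76 FPKM in KO). Other granulosa markers went the other way, with all KO values above WT. Fshr had 0.349 to 1.68 FPKM in WT and 1.82 to 2.07 FPKM in KO, and Kitl 0.097 to 0.383 and 0.402 to 0.559 FPKM. The part of these markers in the results below was not tested. The 10 granulosa and cumulus markers summed to 9.73 to 13.5 FPKM in WT and 6.13 to 10.1 FPKM in KO, with Amh, Inhba and Foxl2 at 0 throughout; the 6 erythroid markers in the table were at 0 and the 3 leukocyte markers summed to at most 0.728 FPKM.

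Levels of the 10 transcripts spread over more than 3 orders of magnitude in WT oocytes. FPKM is scaled per length, so the ranks between genes rest on the transcript lengths behind it, which are not given in the sources used here. Birc5 (3541 ± 162 FPKM, SD, n = 3) and Mad2l1 (3203 ± 243 FPKM) ranked 67 and 77 among all 24255 genes. Aurkc followed at rank 816, Bub3, Bub1b and Ttk at ranks 2000 to 2460, and Incenp, Bub1, Aurkb and Mad1l1 at ranks 5008 to 5809, all 4 below a mean of 1 FPKM. The WT ranges of Birc5 and Mad2l1 overlapped, as did those of Bub3 and Bub1b and those of each pair of neighbours from Incenp down to Mad1l1, so the order inside these groups is not set. In Lsm14b-KO oocytes Bub3 and Bub1b no longer overlapped (13.9 FPKM was the lowest Bub3 value and 9.79 FPKM the highest Bub1b value), and Bub1 stood at rank 3331 in place of 5237.

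**Figure D1:**
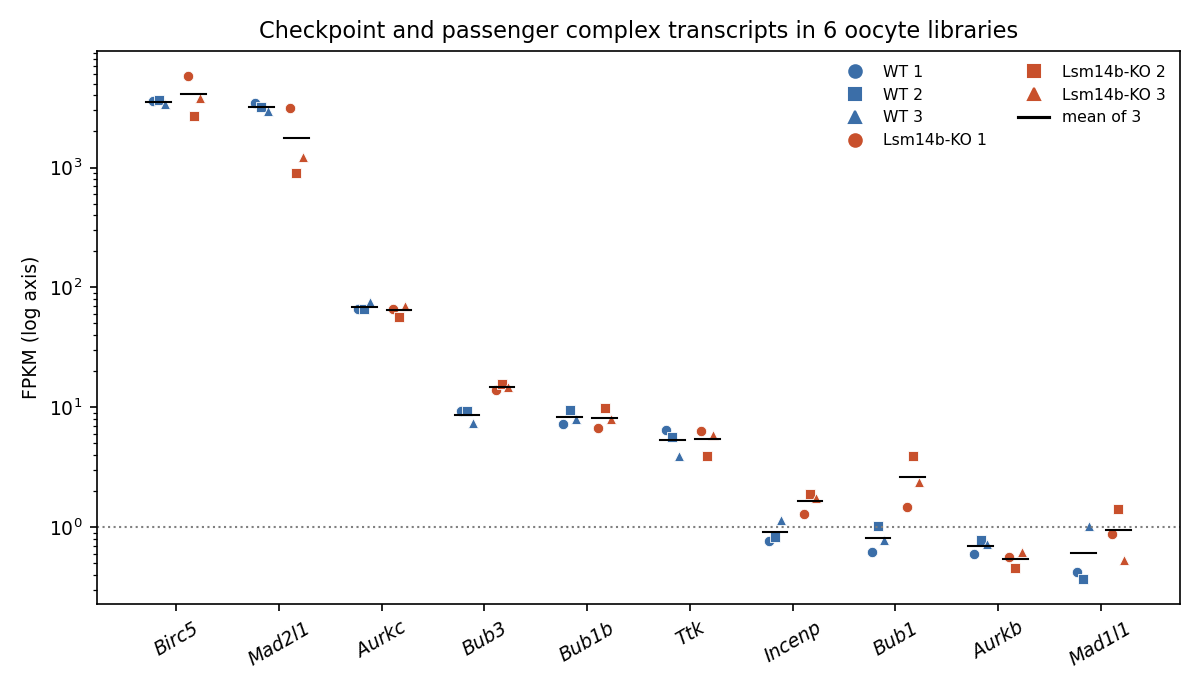
FPKM (log axis) of the 10 genes, ordered by WT mean, in each WT library (blue) and each Lsm14b-KO library (red), with replicates 1, 2 and 3 as circle, square and triangle, a bar at the mean of 3 and a dotted line at 1 FPKM. Bub3 and Bub1 show KO points that all lie above the WT points, and the KO points of Mad2l1 run from 896 to 3166 FPKM.

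Across the 6398 tested genes, limma called 1383 (21.6%) at an adjusted p under 0.05. Of the tested genes, 6.38% (408) were called higher in the KO and 15.2% (975) were called lower. The split depended on the scale, with 833 higher and 486 lower under TPM scaling (every library brought to the same FPKM sum), 540 and 735 after quantile normalization, and 649 and 788 after a correction for transcript length and GC content, and these settings moved the median log2 fold change of all tested genes from -0.08 to 0.40, 0.07 and 0.11. Of the 9 tested checkpoint and passenger genes, 1 was called, Bub1, which was higher. The share of called genes among the 9 was thus below that over all genes. Groups did not overlap for 3 of the 9 (Bub1, Bub3 and Incenp, all higher in KO), against 45.0% of all tested genes. The median log2 fold change (KO minus WT, of FPKM + 1) was 0.14 over the 9 and -0.08 over all tested genes, with 6 of 9 and 2997 of 6398 above 0. All differences are between pools of intact oocytes, and fewer transcript molecules per cell cannot be told apart from fewer cells that hold them.

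**Figure D2:**
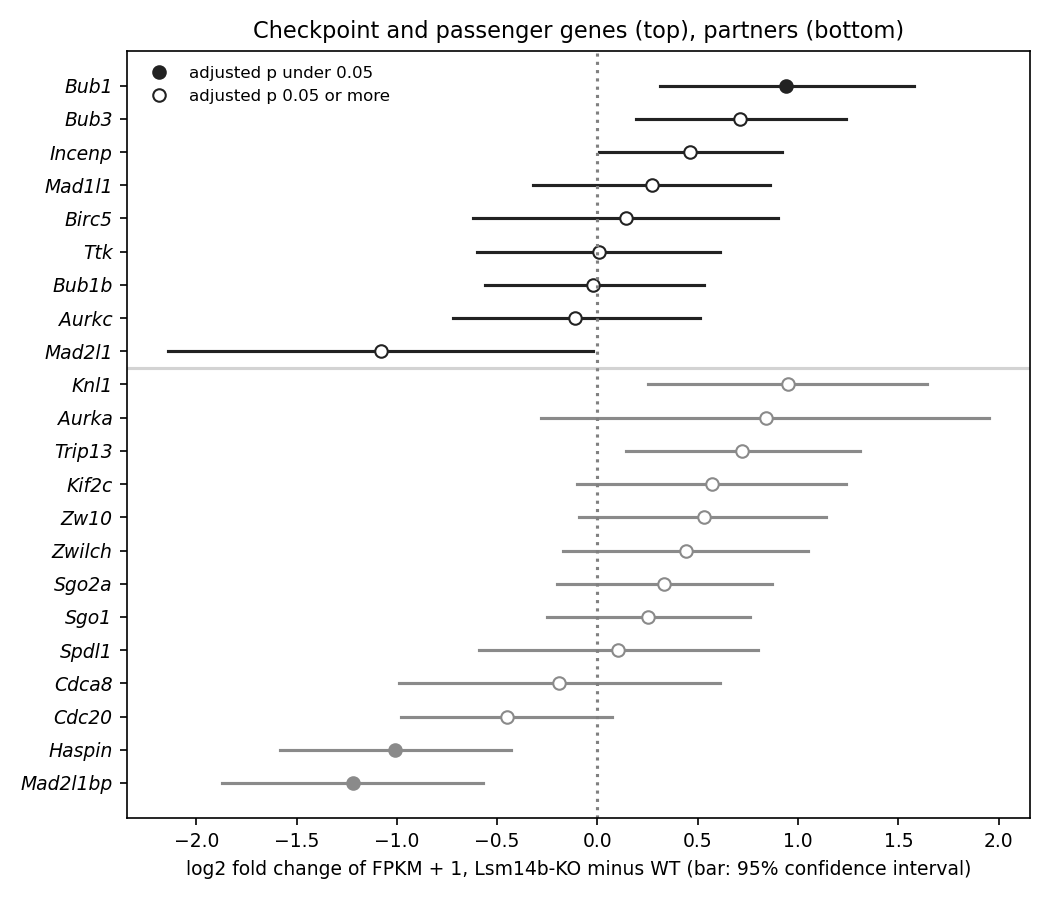
Log2 fold change of FPKM + 1 (Lsm14b-KO minus WT, horizontal axis) with its 95% confidence interval for the 9 tested checkpoint and passenger genes (black, top) and 13 tested pathway partners (grey, bottom), filled where the adjusted p in limma was under 0.05. Bub1 at 0.94, Haspin at -1.01 and Mad2l1bp at -1.22 are the filled points.

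Bub1 (chromosome 2, 127801122 to 127831865, minus strand, 25 exons) encodes the kinase that marks centromeres through histone H2A and builds the checkpoint platform. Its values were 0.615, 1.03 and 0.778 FPKM in WT and 1.48, 3.95 and 2.36 FPKM in the Lsm14b-KO replicates, in their order. All KO values lay above all WT values, and replicate 1 was the lowest of the KO group. The means were 0.806 ± 0.207 and 2.60 ± 1.25 FPKM (SD, n = 3), a ratio of 3.22, and the log2 fold change was 0.94 (SE 0.27, 95% confidence interval 0.31 to 1.58, adjusted p = 0.0451 in limma). The pseudocount of 1 shrinks the difference of a gene at this level: with 0.1 in its place the difference came to 1.49 on the log2 scale (adjusted p = 0.0407 in limma). The call was near the threshold, and 9 of 17 alternatives passed. It was lost under quantile normalization (adjusted p = 0.0529 in limma), without the filter on low values (0.105) and without an intensity trend (0.0543). It was also lost when WT replicate 1, 2 or 3 or Lsm14b-KO replicate 2 or 3 was left out (adjusted p of 0.152, 0.108, 0.128, 0.0994 and 0.134 in limma), and with Lsm14b-KO replicate 1 left out the fitted difference was 1.18 (adjusted p = 0.00816), where 45.3% of all tested genes were called.

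Bub3 (chromosome 7, 131560222 to 131571895, plus strand, 8 exons) encodes the WD-repeat partner that carries both BUB1 and BUBR1 to the kinetochore. It had 9.30, 9.35 and 7.36 FPKM in WT and 13.9, 15.6 and 14.7 FPKM in Lsm14b-KO. The KO values, replicate 1 included, were close together and all above WT. The means were 8.67 ± 1.14 and 14.8 ± 0.836 FPKM (SD, n = 3), and the log2 fold change of 0.71 (SE 0.23, 95% confidence interval 0.19 to 1.24) missed the threshold at an adjusted p of 0.0583 in limma. The adjusted p in limma ran from 0.021 to 0.168 over 17 alternatives, 6 of which passed. Part of Bub3 is overlapped on the other strand by Fgfr2, and whether the counting used strand is not given in the sources used here.

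Bub1b and Ttk differed between the genotypes by less than the spread between replicates. Bub1b (chromosome 2, 118598211 to 118641591, plus strand), the gene of the checkpoint effector BUBR1, which holds CDC20 together with MAD2, had 7.21, 9.49 and 7.94 FPKM in WT and 6.71, 9.79 and 7.97 FPKM in Lsm14b-KO. The groups overlapped and the log2 fold change was -0.02 (SE 0.24, 95% confidence interval -0.56 to 0.53, adjusted p = 0.966 in limma). Ttk (chromosome 9, 83834689 to 83872389, plus strand), the gene of the kinase at the head of the pathway, had 6.50, 5.69 and 3.94 FPKM in WT and 6.33, 3.95 and 5.92 FPKM in Lsm14b-KO. The lowest values of the groups were nearly the same, and the log2 fold change was 0.01 (SE 0.26, 95% confidence interval -0.60 to 0.61, adjusted p = 0.985 in limma). The intervals leave room for differences of up to about 0.6 on the log2 scale in either direction.

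Ratios between these transcripts set the values given above against each other within each library. The ratio of Bub1b to Bub1 FPKM within a library was 11.7, 9.25 and 10.2 in WT and 4.52, 2.48 and 3.38 in Lsm14b-KO, with no overlap, and such a ratio does not depend on a scale factor of the library. The ratio of Bub3 to Bub1 was 15.1, 9.12 and 9.46 in WT and 9.39, 3.95 and 6.25 in Lsm14b-KO, where KO replicate 1 fell inside the WT range. Of the 45 pairs among the 10 genes, 14 had ratios (of FPKM + 1) that did not overlap between the genotypes, against 44.4% of all pairs of tested genes. The pairs share genes and were examined with their values known, so the count carries no test, and a test is given below for the Mad2l1 to Birc5 and the Aurkc to Aurkb ratio alone.

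**Figure D3:**
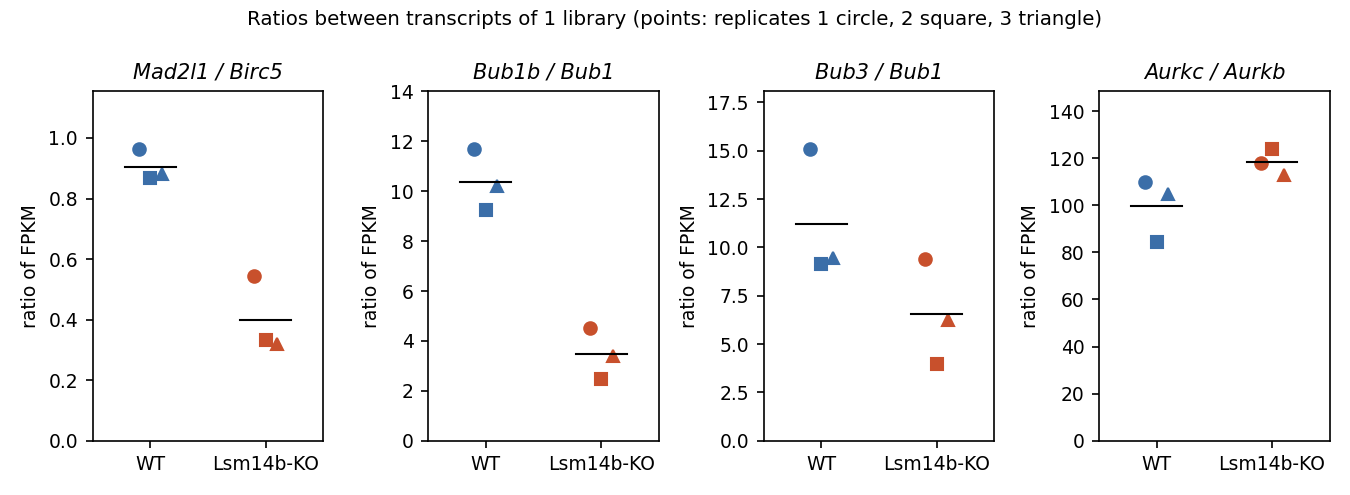
Ratio of FPKM between pairs of transcripts within each library (vertical axis from 0), in WT (blue) and Lsm14b-KO (red) oocytes, with replicates 1, 2 and 3 as circle, square and triangle and a bar at the mean. The Mad2l1 to Birc5 ratio lies at 0.868 to 0.964 in WT and 0.320 to 0.545 in KO, and the Bub1b to Bub1 ratio at 9.25 to 11.7 and 2.48 to 4.52.

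Mad2l1 (chromosome 6, 66535390 to 66547220, plus strand, 5 exons) encodes MAD2, the protein that changes fold on MAD1 and then binds CDC20. It had 3452, 3192 and 2966 FPKM in WT and 3166, 896 and 1220 FPKM in Lsm14b-KO. Replicate 1 of the KO lay inside the WT range, while the other two KO libraries lay far below it. The means were 3203 ± 243 and 1761 ± 1228 FPKM (SD, n = 3). The log2 fold change was -1.08 (SE 0.46, 95% confidence interval -2.14 to -0.02), with p values in limma of 0.0472 before and 0.122 after adjustment. The spread was unequal: the SD of log2(FPKM + 1) was 0.11 in WT and 0.949 in KO. With Lsm14b-KO replicate 1 left out the fitted difference was -1.61 (adjusted p = 0.00149 in limma), the only alternative of 17 in which Mad2l1 was called. TPM scaling brought it to -0.39, quantile normalization to -0.20 and the length and GC correction to -0.58, with the shifts of the median given above. The pseudogene Gm42430 matched the Mad2l1 transcript over 200 nt or more with an identity of 95% or above, so part of its reads may be shared.

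Mad1l1 (chromosome 5, 140008689 to 140321552, minus strand), the gene of the kinetochore anchor of MAD2, was near the lower limit of the measurement. It had 0.422, 0.370 and 1.02 FPKM in WT and 0.873, 1.41 and 0.534 FPKM in Lsm14b-KO. The groups overlapped, and the log2 fold change was 0.27 (SE 0.26, 95% confidence interval -0.32 to 0.86, adjusted p = 0.439 in limma). There was thus a wide gap between the transcripts of the MAD partners in both genotypes, with 2897 to 8631 Mad2l1 FPKM per Mad1l1 FPKM in WT and 636 to 3627 in Lsm14b-KO. The gene is overlapped by 5 others, 2 of them on its own strand.

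Among the passenger complex genes, Birc5 (chromosome 11, 117849251 to 117855743, plus strand), which encodes survivin, was the most abundant transcript of the 10 by mean. It had 3583, 3679 and 3363 FPKM in WT and 5814, 2692 and 3808 FPKM in Lsm14b-KO. The KO libraries lay on both sides of the WT range, with replicate 1 the highest. The means were 3541 ± 162 and 4105 ± 1582 FPKM (SD, n = 3), and the log2 fold change was 0.14 (SE 0.33, 95% confidence interval -0.62 to 0.90, adjusted p = 0.758 in limma). It turned to -0.14 with Lsm14b-KO replicate 1 left out.

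The call of Birc5 depended on the scale. As TPM it had 2879, 3139 and 2946 in WT and 5647, 4768 and 5628 in Lsm14b-KO, so that all KO values lay above WT. The fitted difference was then 0.84 on the log2 scale (adjusted p = 0.0179 in limma), and 0.87 under quantile normalization (adjusted p = 0.0117). TPM scaling moved the median of all tested genes from -0.08 to 0.40 and called 13.0% of them higher, and the value for Birc5 is to be read against that median. Under TPM, 3 of the 9 genes were called, Bub1 (1.40, adjusted p = 0.0484), Bub3 (1.35, adjusted p = 0.0266) and Birc5, all higher, by limma. Ttk, at 5.22, 4.85 and 3.45 TPM in WT and 6.15, 6.99 and 8.75 TPM in KO, no longer overlapped between the groups (log2 fold change 0.59, adjusted p = 0.126 in limma). Bub1, Bub3 and Incenp did not overlap as TPM either, all higher in KO. The share of all tested genes without overlap as TPM is not given here, so these cannot be set against it.

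Mad2l1 and Birc5 stood at nearly the same level in every WT library and apart in every Lsm14b-KO library. The Mad2l1 to Birc5 ratio, which a single scale factor for a library cannot change, was 0.964, 0.868 and 0.882 in WT and 0.545, 0.333 and 0.320 in Lsm14b-KO. All KO values, replicate 1 included, lay below all WT values. On the log2 scale the ratio was -0.15 ± 0.08 in WT and -1.37 ± 0.43 in KO (SD, n = 3), a difference of -1.22 with a two-sided exact permutation p of 0.10, the smallest that 3 against 3 libraries allow. The pair was chosen after its values were seen. Leaving out each library in turn gave differences of -1.47 to -1.08. The annotated transcripts used differ in length (1725 and 3334 nt). After the length and GC correction the fitted differences of Mad2l1 and Birc5 lay closer together, at -0.58 and 0.04, than the -1.08 and 0.14 without it. A single transcript was taken per gene, and that of Birc5 had 3 exons and a 3′ UTR of 2936 nt. Which form the oocytes hold was not tested, so the length of Birc5 and its corrected value are uncertain.

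Of the kinases of the passenger complex, Aurkc was far more abundant than Aurkb in every library. Aurkc (chromosome 7, 6995300 to 7003091, plus strand, 7 exons) had 65.6, 65.8 and 75.5 FPKM in WT and 65.7, 57.0 and 69.7 FPKM in Lsm14b-KO. The groups overlapped, and the log2 fold change was -0.11 (SE 0.26, 95% confidence interval -0.72 to 0.51, adjusted p = 0.778 in limma). Aurkb (chromosome 11, 69045647 to 69051664, plus strand, 8 exons), the partner of INCENP in somatic cells, had 0.596, 0.781 and 0.721 FPKM in WT and 0.558, 0.459 and 0.615 FPKM in Lsm14b-KO, again with overlap. The Aurkc transcript is matched as closely by 5 pseudogenes, so its level is uncertain, whereas the aligned stretch of Aurkb and Aurkc (802 nt) was only 75.2% identical.

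The balance of the Aurora kinases was tested as the log2 ratio of Aurkc to Aurkb (FPKM + 1). It was 5.36 ± 0.124 in WT and 5.40 ± 0.073 in Lsm14b-KO oocytes (SD, n = 3), a difference of 0.03 with a two-sided exact permutation p of 0.70. Taken without a pseudocount, the ratio of FPKM was 110, 84.3 and 105 in WT and 118, 124 and 113 in KO, which did not overlap. The difference was above 0 at each pseudocount, but its size and the overlap of the groups depended on the constant, with 0.21 and 0.25 at pseudocounts of 0.1 and 0.01. Its sign turned (-0.03) with WT replicate 2 left out.

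Incenp (chromosome 19, 9872296 to 9899551, minus strand, 18 exons), the gene of the scaffold of the complex, had 0.765, 0.819 and 1.15 FPKM in WT and 1.28, 1.88 and 1.76 FPKM in Lsm14b-KO. All KO values lay above WT, though KO replicate 1 only by a little. The means were 0.913 ± 0.211 and 1.64 ± 0.317 FPKM (SD, n = 3), a ratio of 1.79. The log2 fold change of 0.46 (SE 0.20, 95% confidence interval 0.01 to 0.92) had p values in limma of 0.0478 before and 0.123 after adjustment. It passed in none of 17 alternatives (adjusted p of 0.0518 to 0.283 in limma). Per Aurkc transcript there were 0.0117, 0.0124 and 0.0153 Incenp transcripts (FPKM to FPKM) in WT and 0.0195, 0.0329 and 0.0252 in KO, without overlap. Another annotated gene, AC132253.8, lies on the same strand over part of Incenp.

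**Figure D4:**
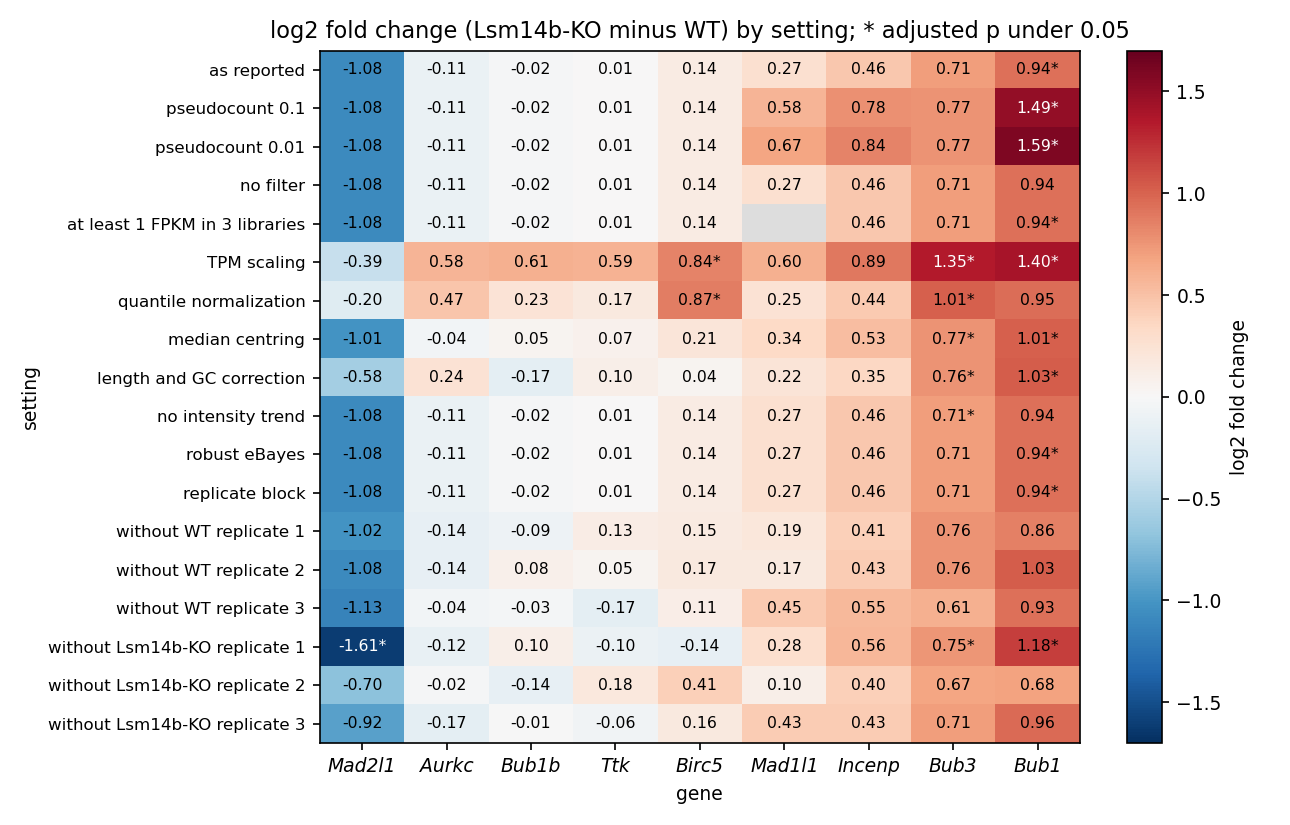
Log2 fold change (Lsm14b-KO minus WT) of the 9 tested genes (columns) as reported and under 17 alternatives (vertical axis), coloured from blue (lower in KO) to red (higher in KO), with an asterisk where the adjusted p in limma was under 0.05 and grey where the gene was not tested. Bub1 and Bub3 are red in every setting, at 0.68 to 1.59 and 0.61 to 1.35, Mad2l1 is blue in every setting, at -1.61 to -0.20, and Bub1b, Ttk, Aurkc and Birc5 change colour.

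Transcript length moved with the genotype difference over all genes. With the tested genes in 4 groups of nearly equal size, the median log2 fold change was -0.58 in the shortest genes (96 to 1339 nt), -0.18 in the next (1340 to 2259 nt), 0.13 in the third group (2260 to 3659 nt) and 0.29 in the longest. Bub1 (3421 nt, 0.94) and Bub3 (2218 nt, 0.71) lay above, and Mad2l1 (1725 nt, -1.08) below, the median of their length group. After correction for length and GC content the log2 fold changes were 1.03 for Bub1 (adjusted p = 0.0346 in limma), 0.76 for Bub3 (adjusted p = 0.0342) and -0.58 for Mad2l1. Birc5, taken at 3334 nt, fell to 0.04, and Aurkc, the shortest of the 10 transcripts used at 1401 nt, came to 0.24.

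**Figure D5:**
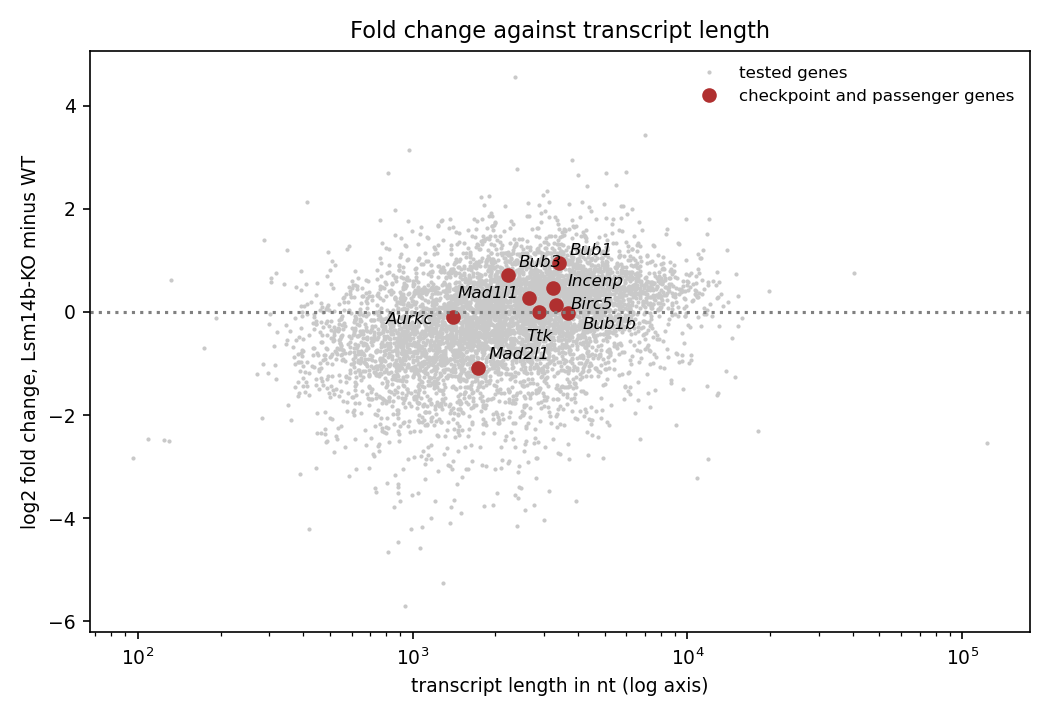
Log2 fold change of FPKM + 1 (Lsm14b-KO minus WT, vertical axis) against transcript length in nt (log axis) for tested genes with a length (grey) and the 9 tested checkpoint and passenger genes (red, named). The grey points tilt upward from a median of -0.58 in the shortest group to 0.29 in the longest, and Bub1, Bub3 and Mad2l1 lie farthest from 0 among the red points.

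Other genes of the pathway were taken as a list of 15 partners, of which 13 were tested. Their median log2 fold change was 0.33 with 9 of 13 above 0, against 2997 of all 6398 tested genes. Groups did not overlap for 5 of 13, against 45.0% of all tested genes. Of the 13, 2 were called, both lower, where 15.2% of all tested genes were called lower. Mad2l1bp (p31comet), which pulls MAD2 out of checkpoint complexes, had 19.7, 16.7 and 17.9 FPKM in WT and 9.77, 4.92 and 7.58 FPKM in Lsm14b-KO, all below WT. It fell by 1.22 on the log2 scale (SE 0.28, adjusted p = 0.0227 in limma), and 10 of 17 alternatives passed. Haspin (listed under its older symbol Gsg2), the kinase whose mark on histone H3 recruits the passenger complex, had 5.65, 5.99 and 3.37 FPKM in WT and 2.39, 1.58 and 1.87 FPKM in KO, again all below WT. It fell by 1.01 (SE 0.25, adjusted p = 0.0273 in limma), and 11 of 17 alternatives passed. Leaving out WT replicate 1, WT replicate 2 or Lsm14b-KO replicate 3 ended both calls. TPM scaling ended them too, and the only partner called there was Trip13, which was higher (0.99, adjusted p = 0.0362 in limma). The Mad2l1bp call also ended with WT replicate 3 left out, and the Haspin call with Lsm14b-KO replicate 2 left out. Over all alternatives the adjusted p in limma reached 0.101 for Mad2l1bp and 0.180 for Haspin.

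Knl1, Trip13, Cdc20 and Cdca8, whose products also bind or act on the checkpoint and passenger proteins directly, did not pass. Knl1 (listed as Casc5), the kinetochore docking protein of BUB1 and BUB3, had 0.441, 0.352 and 0.546 FPKM in WT and 0.725, 2.49 and 2.57 FPKM in Lsm14b-KO. All KO values were above WT, and the fitted difference was 0.95 (adjusted p = 0.0579 in limma). Trip13, the ATPase that works with p31comet on MAD2, had 0, 0.439 and 0.365 FPKM in WT and 1.41, 0.580 and 1.33 FPKM in KO, also without overlap (0.72, adjusted p = 0.0753 in limma). Cdc20, the target of the checkpoint, had 0.664, 1.30 and 0.641 FPKM in WT and 0.497, 0.425 and 0.152 FPKM in KO, all below WT (-0.45, adjusted p = 0.173 in limma). Cdca8, which encodes borealin, had 24.6, 21.8 and 24.7 FPKM in WT and 12.2, 28.1 and 25.3 FPKM in KO, with replicate 1 alone below WT (-0.19, adjusted p = 0.692 in limma). With Lsm14b-KO replicate 1 left out, limma called 6 partners, Knl1, Aurka, Zw10 and Kif2c higher and Mad2l1bp and Haspin lower, which is close to the 45.3% of all tested genes called in that setting.

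As a description of shared patterns, the tested gene most like each member was sought by Pearson r of log2(FPKM + 1) over the 6 libraries, among genes with a mean of at least 5 FPKM. Mad2l1 ran closest to Psmd10 (r = 0.998), a gene that encodes a proteasome assembly chaperone, and Birc5 to l7Rn6 (r = 0.995). Bub1 ran closest to Slc3a2 (r = 0.993), which encodes the heavy chain of amino acid transporters, Bub3 to Sdcbp (r = 0.984) and Incenp to Padi6 (r = 0.995), an oocyte-specific gene. For Bub1b, Ttk, Mad1l1 and Aurkc the closest genes were Aurkaip1 (0.967), Atp5g3 (0.996), Ube2a (0.929) and Tecr (0.922). Each was the highest of about 2559 candidates over only 6 libraries of 2 genotypes, which share the differences in scale given above.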

How the data were processed

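Total RNA libraries from 3 WT and 3 Lsm14b-KO pools of GV-stage oocytes were analysed. The authors deposited FPKM values per gene, made, per the submitters' processing notes, with TopHat2 (2.0.13), Cufflinks (2.2.1), Cuffnorm and Cuffdiff on mm10; the gene annotation and the use of strand are not given in the sources used here. The table also holds the authors' fold change, p and q columns, which were not used. No read counts were used, so depth is known only as a relative value, and no counting interval is given.

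Genes with at least 1 FPKM in 1 library were tested as log2(FPKM + 1), which understates the change of low genes, with limma (3.58.1, R 4.3.3; intensity trend, all 6 libraries, genotype as the only term, Benjamini-Hochberg adjustment over 6398 genes, threshold 0.05). Cuffdiff, which the study used, needs reads and was replaced. Ratios of 2 genes were compared by a two-sided exact permutation test. Transcript lengths, GC content and overlaps came from GENCODE vM21 (GRCm38), and near-identical copies from blastn (2.17.0; 95% identity over 200 nt). The fit was tested on simulated data.

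All 10 genes were named, with partners that passed or that bind them directly. They and all lists were chosen with earlier results of these data known. Zw10, Kif2c, Aurka and the single cell type markers were named after their values were seen. The alternatives were other pseudocounts (0.1, 0.01), filters, scalings, a length and GC correction, other limma settings, a replicate block and leaving out each library.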

Additional observations from a re-analysis of the deposited data

How the results depend on the processing

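Bub1, Bub3, Mad1l1 and Incenp stayed higher and Mad2l1 lower in Lsm14b-KO oocytes under each alternative that gave them a value. Of the 9 genes, 1 was called as reported (4 at an unadjusted p under 0.05 in limma), against 0 without the filter (3 at an unadjusted p under 0.05), 3 under TPM scaling (Bub1, Bub3 and Birc5), 2 under quantile normalization (Bub3 and Birc5, not Bub1), 2 each after median centring and the length and GC correction (Bub1 and Bub3), and 0 to 3 with a library left out (2 to 4 at an unadjusted p under 0.05). Without an intensity trend Bub3 (adjusted p = 0.0455 in limma) was called in place of Bub1 (adjusted p = 0.0543). Of the partners, 2 were called as reported, 0 without the filter (4 at an unadjusted p under 0.05), 1 under TPM scaling (Trip13, higher), 1 under quantile normalization (Haspin, lower), and 0 to 6 with a library left out. The share of all tested genes at an unadjusted p under 0.05 in limma is not given here. As reported it is at least the 21.6% called after adjustment, so the unadjusted counts are not a result about these genes. Over all genes 1383 were called, 720 without the filter (14325 tested), and 315 to 2898 with a library left out, the highest without Lsm14b-KO replicate 1; the split into higher and lower was 408 and 975 as reported, 833 and 486 under TPM scaling, 545 and 859 after median centring, 540 and 735 after quantile normalization, and 649 and 788 after the length and GC correction. Leaving out a library also changes how many libraries are tested; the cause of the other shifts was not tested.

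The sign turned for differences near 0. Bub1b came to 0.61 under TPM scaling, 0.23 under quantile normalization, 0.05 after median centring, 0.08 without WT replicate 2 and 0.10 without Lsm14b-KO replicate 1. Ttk ran from -0.17 (without WT replicate 3) to 0.18 with a library left out, with -0.10 and -0.06 without Lsm14b-KO replicates 1 and 3. Aurkc came to 0.58 under TPM scaling, 0.47 under quantile normalization and 0.24 after the length and GC correction, and Birc5 ran from -0.14 (without Lsm14b-KO replicate 1) to 0.41. Cdca8 came to 0.48, 0.26 and 0.02 in those 3 settings and ran from -0.40 to 0.17 (without Lsm14b-KO replicate 1) with a library left out. Spdl1 came to -0.03 without WT replicate 2 and ran from -0.12 (without Lsm14b-KO replicate 2) to 0.39. The Aurkc to Aurkb difference ran from -0.03 (without WT replicate 2) to 0.09 with a library left out, and was 0.21 and 0.25 with pseudocounts of 0.1 and 0.01; it was not run under the length and GC correction, since Aurkb was not among the tested genes.

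Residuals of libraries with the same replicate number had correlations of 0.19, -0.13 and 0.02, so the numbers were not taken as pairs, and not every library correlated best with its own number. With a replicate block 1244 genes were called, and 1 of the 9 and 2 of the partners as before; Bub1 had an adjusted p of 0.0348 and Bub3 of 0.109 in limma. Genes below 1 FPKM and 3 libraries a group limit what can be seen.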

Other observations

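The spread within the Lsm14b-KO group was wide for some checkpoint and passenger genes and partners. The KO libraries were also less alike across all tested genes. Pearson r was 0.917 to 0.974 between KO libraries and 0.981 to 0.986 between WT libraries. The SD over all tested genes is not given here, so a wide spread is not shown to be particular to these genes. Aurka, the spindle pole Aurora kinase, had 8.96, 7.96 and 9.55 FPKM in WT and 7.17, 33.9 and 17.8 FPKM in the Lsm14b-KO replicates, in their order. Replicate 1 lay just below the WT range and the other two KO libraries well above it, so that the SD of log2(FPKM + 1) was 0.12 in WT and 1.05 in KO. The log2 fold change was 0.84 (95% confidence interval -0.28 to 1.95, adjusted p = 0.225 in limma), and 1.38 without Lsm14b-KO replicate 1 (adjusted p = 0.00895). For Cdca8 the same SD was 0.0981 in WT and 0.622 in KO, for Birc5 0.0666 and 0.556, and for Knl1 0.0967 and 0.597. Bub3 went the other way, with 0.176 in WT and 0.0765 in KO. These spreads were not tested, and Aurka was named after its values were seen.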
